A study of Mus musculus with 12 samples.

Results

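The transcription factor p53 (gene Trp53), its inhibitors Mdm2 and Mdm4, and 7 genes that p53 is known to switch on (Ccng1, Phlda3, Zmat3, Gadd45a, Trp53inp1, Eda2r and Aen) were followed in cultured neural stem/progenitor cells (NSPCs) with and without Ythdf2. The 10 genes were picked by symbol for their known roles and are 10 of the 24525 genes in the count tables. All 10 had enough reads to be tested. The study asked how loss of Ythdf2, a reader protein that binds m6A-modified mRNA and promotes its decay, affects neural development. RNA-seq was done on 6 input libraries, which hold fragmented mRNA that was not passed over the m6A antibody. There were 3 libraries from wild-type and 3 from Ythdf2-/- cells.

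Both groups were C57BL/6 mouse NSPCs from the forebrain of E14.5 embryos, taken at passage P1 and grown as floating neurospheres with EGF and bFGF. They differed by the Ythdf2 allele. In the knockout, the region around the 5′ UTR and first exon had been flanked by LoxP sites and removed by a Cre line active in the whole body, so the deletion was present in every cell of the embryo and not in neural cells alone. The sources describe 3 biological replicates but do not tie each library to an embryo or litter, and p-values below measure the spread between these libraries. The libraries held 11029827 to 13185778 counted reads. Values are given as normalised read counts (CPM, scaled by TMM), and a positive log2 fold change means a higher level in the Ythdf2-/- libraries. Ythdf2 was at 71.9, 73.3 and 91.4 CPM in the wild-type and 11.7, 14.7 and 11.1 CPM in the Ythdf2-/- libraries, so each library matched its label.

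p53 is made continuously and kept low by Mdm2, an E3 ubiquitin ligase that marks it for destruction, and by Mdm4, a related protein that masks its activation domain. DNA damage and other stresses free p53, which then binds DNA as a tetramer and switches on genes for cell-cycle arrest, repair and apoptosis. Mdm2 is itself one of these genes, which closes a negative feedback loop. Because p53 is controlled largely as a protein, the amount of Trp53 mRNA is a poor measure of its activity, and the mRNAs of its targets are the usual readout. In the embryonic brain, p53 is best known for the apoptosis and growth arrest that follow DNA damage or faulty division of neural progenitors.

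A p53 tetramer reads 2 half-sites of 10 bases each, placed end to end or close together. The sites are shown because they are what makes a gene a direct candidate for p53 binding. Within 2500 bases of a curated RefSeq transcript start in GRCm38.p6, the assembly also called mm10, full sites with a spacer of at most 1 base and at most 1 mismatch to the p53 consensus were found in 3 of the 10 genes. The search covers both strands, since the consensus reads the same on each. The matches are written 5′ to 3′ on the strand of the gene, with the half-sites in capitals.
Trp53inp1, chr4:11155112-11155132, plus strand, 1329 bases upstream of the start, 20 of 20 bases matched with a spacer of 1 base: caggaAAACATGTCCaGGACTAGCCTggac
Zmat3, chr3:32364331-32364350, minus strand, in an intron 1315 bases after the start, 20 of 20 bases matched: tgagAAACAAGCCCAGGCATGTCTtggga
Ccng1, chr11:40755462-40755481, minus strand, 195 bases upstream of the start, 19 of 20 bases matched: ggccAGACCTGCCCGGGCAAGCCTtggca
Ccng1, chr11:40754936-40754955, minus strand, in an intron 331 bases after the start, 19 of 20 bases matched: cggaACGCAAGCCCGGGCTAGTCTgcgcc

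The share of genes with such a full site was 30.0% among the 10 and 2.66% among the 12700 tested genes with a window (338 genes), and 8 of 55 other p53 targets with a window held one. A shorter search asked for a single exact half-site in the RefSeq promoter window, from 250 bases before to 50 bases after a start. It found one in 5 of the 8 members present in that promoter table (62.5%) and in 2582 of all 27025 genes (9.55%). One of the 5 was the upstream site of Ccng1 shown above. The other 4 matches, with the half-site in capitals, show that the genes for p53 and its main inhibitor carry one too.
Trp53, chr11:69580284-69580293, plus strand, 75 bases upstream of a start: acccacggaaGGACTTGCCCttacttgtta
Mdm2, chr10:117710935-117710944, minus strand, 186 bases upstream: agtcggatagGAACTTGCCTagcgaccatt
Gadd45a, chr6:67037438-67037447, minus strand, 40 bases upstream: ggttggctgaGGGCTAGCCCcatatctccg
Aen, chr7:78895937-78895946, plus strand, 10 bases after the start: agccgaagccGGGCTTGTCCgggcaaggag

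A match is a description of the letters, and binding of p53 was not measured in these libraries. The map of the matched sites shows how far each lies from the transcript start.

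**Figure D1:**
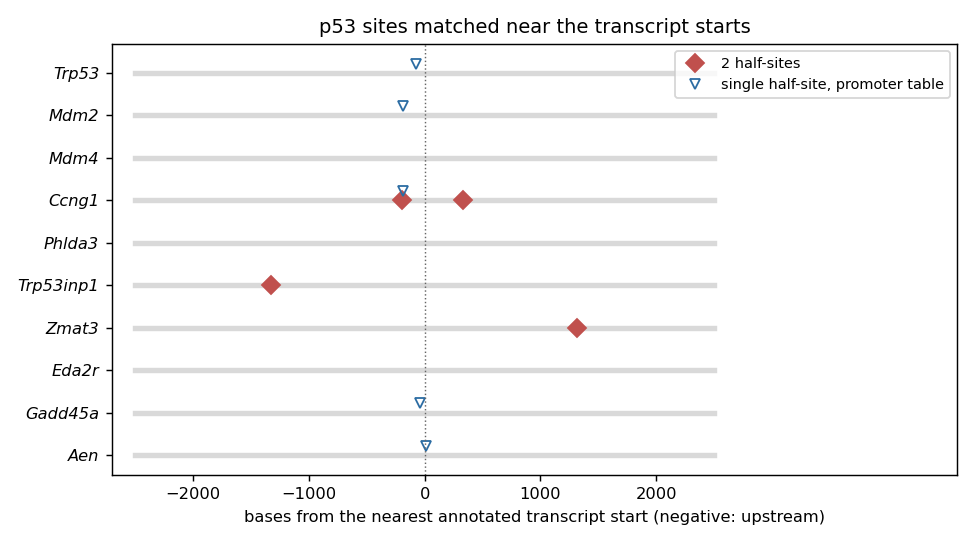
Position of the matched p53 sites in bases from the nearest curated transcript start (negative values are upstream), 1 row per gene; diamonds are full sites of 2 half-sites and triangles are single half-sites in the promoter window. Full sites lie in Ccng1, Trp53inp1 and Zmat3, from 1329 bases upstream to 1315 bases after the start.

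One library stood apart over all genes. The first principal component of the 2000 most variable genes held 74.2% of the variance, and wild-type replicate 3 was at 91.0 on it, while the other 5 libraries lay between -30.6 and -6.04. All 8 genes of a list of proliferation markers, added after the values were seen, were lower in it, and their summed level was 27.1 CPM against 1595 to 2350 CPM elsewhere. Mki67, a marker of dividing cells, was at 9.98 CPM against 554 to 698, and Aurkb was at 0. The summed level of 8 astroglial markers was 12250 CPM against 3072 to 8181, that of 10 oligodendrocyte lineage markers 4250 against 1732 to 2164 and that of 10 neuronal markers 2115 against 1298 to 1520 CPM. Within these lists, wild-type replicate 3 was the highest library in 4 of the 8 astroglial, 6 of the 10 oligodendrocyte lineage and 6 of the 10 neuronal markers. It was the lowest in none of the astroglial, 1 of the neuronal and 3 of the oligodendrocyte lineage markers, namely Olig1 (547 against 874 to 1250 CPM), Olig2 (324 against 417 to 514 CPM) and Cspg4 (89.9 against 94.9 to 145 CPM). The 14 neural progenitor markers summed to 6202 CPM in this library and to 8668 to 9664 CPM in the others. It was the highest of the 6 libraries in 8 of them, among these Sox2 (551 against 316 to 426 CPM) and Sox9 (346 against 88.1 to 122 CPM), and the lowest in 4, among these Nes (264 against 725 to 1212 CPM) and Fabp7 (760 against 1638 to 2409 CPM). The microglial markers summed to at most 1.54 CPM in any library, with Ptprc, C1qa and C1qb at 0. Of the 8 endothelial and mesenchymal markers, Pdgfrb alone stood out, at 31.8 CPM in wild-type replicate 3 against 0.148 to 3.496 CPM elsewhere; the 8 summed to 33.2 against 1.48 to 5.88 CPM, Kdr and Pecam1 were at 0.732 and 0.0915 CPM in that library, and Cdh5, Col1a1 and Cldn5 were at 0 there. In bulk RNA, fewer cells of a type and less RNA per cell cannot be told apart. The comparisons of the 10 genes between genotypes are therefore given with and without this library.

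Trp53 (chr11:69580348-69591873, plus strand) was expressed in every library. It was at 80.5, 79.5 and 50.5 CPM in wild-type replicates 1 to 3 and at 73.3, 68.9 and 63.2 CPM in Ythdf2-/- replicates 1 to 3. The Ythdf2-/- values lay between the first pair of wild-type libraries and the low wild-type replicate 3. The means were 70.2 ± 17.02 and 68.5 ± 5.02 CPM (SD, n = 3 each), and the log2 fold change was -0.04 with a standard error of 0.21 and a 95% interval from -0.53 to 0.46 (edgeR's quasi-likelihood test, Benjamini-Hochberg adjusted p = 0.999). A difference was therefore not shown, and the interval still allows changes of either sign.

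The inhibitors were the steadiest of the 10. Mdm2 (chr10:117688875-117710758, minus strand) was at 81.6, 79.3 and 72.8 CPM in the wild-type and at 77.3, 90.5 and 71.7 CPM in the Ythdf2-/- libraries. The highest and lowest library were both Ythdf2-/-, and they differed 1.26-fold, the smallest range among the 10 genes. The log2 fold change was 0.04 (SE 0.14, 95% interval -0.29 to 0.36). Mdm4 (chr1:132986105-133030587, minus strand) was at 159, 163 and 212 CPM in the wild-type and at 146, 164 and 154 CPM in the Ythdf2-/- libraries. Only wild-type replicate 3 was above the rest. Its log2 fold change was -0.20 (SE 0.16, 95% interval -0.58 to 0.17). Pseudogenes named Trp53-ps and Mdm4-ps are annotated on chromosomes 17 and X. Neither has a row in the count tables, and how reads shared with them were counted is not given in the sources used here.

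Ccng1 (chr11:40748552-40755309, minus strand) encodes cyclin G1, which recruits a phosphatase to Mdm2 and so feeds back on p53. It was at 558, 561 and 196 CPM in the wild-type and at 419, 415 and 456 CPM in the Ythdf2-/- libraries. The first pair of wild-type libraries was above all Ythdf2-/- libraries and wild-type replicate 3 was below them. The means of 438 ± 210 and 430 ± 22.4 CPM (SD, n = 3 each) almost coincided because the low library offset the high pair. The log2 fold change was -0.03 (SE 0.39, 95% interval -0.98 to 0.93).

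Phlda3 (chr1:135766085-135769134, plus strand), which encodes a small protein that holds back the survival kinase Akt, had the same arrangement. It was at 79.2, 78.0 and 20.7 CPM in the wild-type and at 58.2, 55.9 and 68.3 CPM in the Ythdf2-/- libraries. Its levels spanned 3.81-fold, the widest range of the 10, and wild-type replicate 3 set the lower end. Its log2 fold change was 0.04 (SE 0.48, 95% interval -1.12 to 1.19). Aen (chr7:78895927-78911209, plus strand), an apoptosis-enhancing nuclease, was at 134, 132 and 55.7 CPM in the wild-type and at 103, 73.4 and 107 CPM in the Ythdf2-/- libraries. Here too the Ythdf2-/- libraries lay between the first pair and wild-type replicate 3. The log2 fold change was -0.18 (SE 0.36, 95% interval -1.05 to 0.68).

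Eda2r (chrX:97333837-97377234, minus strand) encodes a receptor of the TNF receptor family. It was at 119, 116 and 34.8 CPM in the wild-type and at 77.7, 113 and 112 CPM in the Ythdf2-/- libraries. Ythdf2-/- replicates 2 and 3 lay just below the first pair of wild-type libraries, and replicate 1 was lower. Its log2 fold change was 0.17 (SE 0.46, 95% interval -0.94 to 1.28). Zmat3 (chr3:32334792-32365665, minus strand), an RNA-binding zinc finger protein, was at 146, 134 and 97.5 CPM in the wild-type and at 117, 120 and 151 CPM in the Ythdf2-/- libraries. Its groups overlapped with and without wild-type replicate 3, and its log2 fold change was 0.04 (SE 0.20, 95% interval -0.43 to 0.51).

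Trp53inp1 (chr4:11156441-11174379, plus strand), a stress-induced protein that enhances p53 activity and takes part in autophagy, had the largest fold change upwards. It was at 215, 208 and 150 CPM in the wild-type and at 212, 344 and 236 CPM in the Ythdf2-/- libraries. Ythdf2-/- replicate 2 was far above the other 5 libraries, and Ythdf2-/- replicate 1 was within the wild-type values. The means were 191 ± 35.6 and 264 ± 70.4 CPM (SD, n = 3 each), with a log2 fold change of 0.47 (SE 0.24, 95% interval -0.12 to 1.05) that did not pass edgeR's quasi-likelihood test (adjusted p = 0.999). Without Ythdf2-/- replicate 2 the log2 fold change was 0.24.

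Gadd45a (chr6:67035096-67037407, minus strand), a small stress sensor tied to growth arrest and DNA repair, was, like Mdm4, highest in wild-type replicate 3. It was at 7.45, 8.32 and 22.4 CPM in the wild-type and at 7.67, 6.89 and 8.53 CPM in the Ythdf2-/- libraries. The other 5 libraries lay close together, and wild-type replicate 3 was at 2.85 times the mean of the first pair, which is the opposite direction to Ccng1, Phlda3, Eda2r and Aen. The log2 fold change of -0.72 (SE 0.46, 95% interval -1.84 to 0.39) was the largest of the 10 in size and rested on this library, since it was -0.04 without it. Gadd45a had 87 to 245 reads per library. Exons of Gadd45a and Zmat3 overlap genes on the other strand, E230016M11Rik over 238 bases and 4930429B21Rik over 177 bases. These partners had 22 to 35 and 19 to 34 reads per library. The strand setting of the counting is not given in the sources used here, so the split of shared reads is uncertain.

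**Figure D2:**
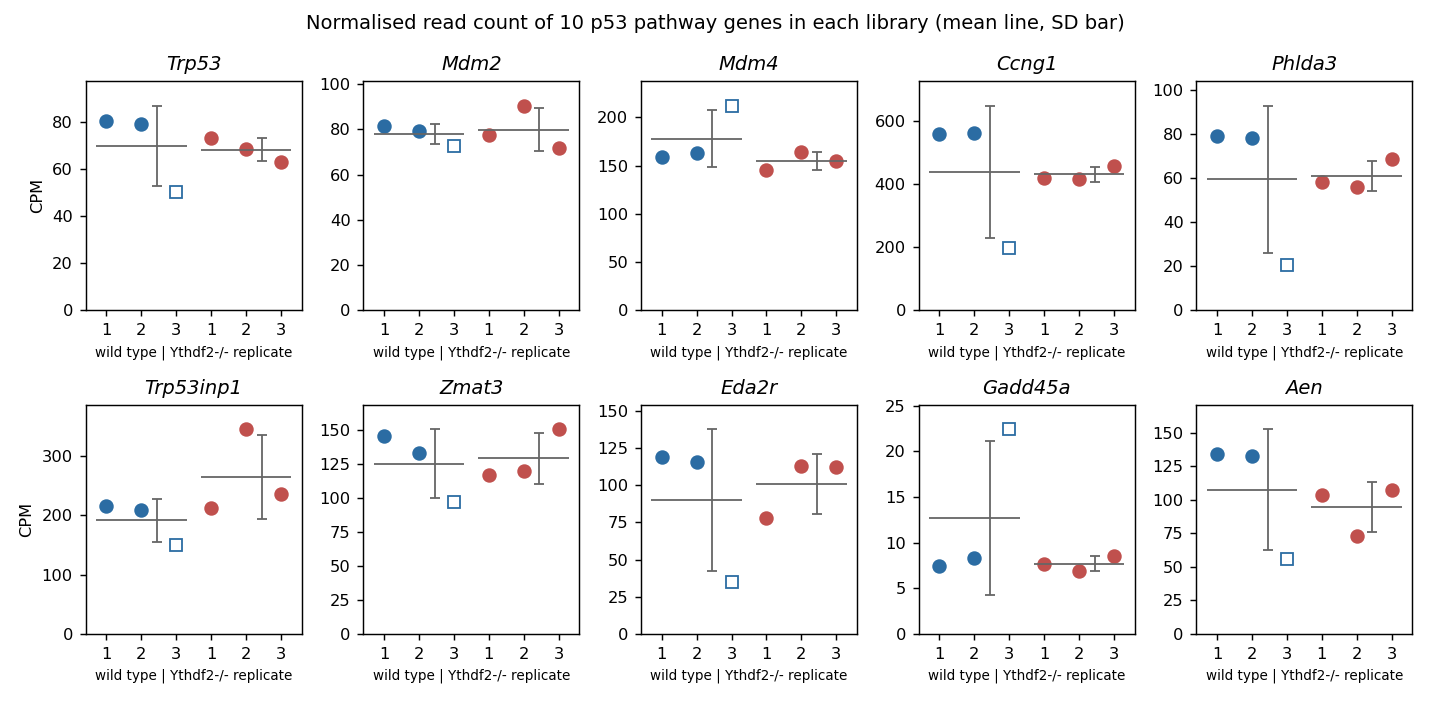
Normalised read count (CPM, axes from 0) of each of the 10 genes in the 3 wild-type (blue) and 3 Ythdf2-/- (red) libraries, with the group mean as a line and the SD as a bar; the open square is wild-type replicate 3. In Ccng1, Phlda3, Eda2r and Aen the open square is the lowest point, and in Mdm4 and Gadd45a it is the highest.

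Levels can be set against each other only per length of transcript. In CPM per kilobase of exon (RPKM), Ccng1 was the highest of the 10, at a mean of 124 over the 6 libraries. Trp53inp1 (41.9), Phlda3 (40.9) and Trp53 (30.3) followed, then Mdm4 (22.4), Aen (19.8), Zmat3 (15.7), Eda2r (15.5), Mdm2 (10.6) and Gadd45a (8.34). Ccng1 stood clear of the rest in every library, since its lowest value of 55.9 RPKM in wild-type replicate 3 compares with 28.5 RPKM for the next gene there, Mdm4. The neighbours below it were not separated. Trp53inp1 spanned 27.6 to 63.3 and Phlda3 14.1 to 54.0 RPKM over the libraries, and Aen, Zmat3 and Eda2r overlapped in the same way. Mdm2 stayed within 9.67 to 12.2 RPKM.

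Across all 6 libraries, none of the 10 genes passed edgeR's quasi-likelihood test at an adjusted p under 0.05, as none did among the 13112 genes tested (0.00% called). At an unadjusted p under 0.05 the count was again 0 of 10, against 476 genes or 3.63% of all. DESeq2 called 31 genes at its adjusted threshold, and none was a member. All 3 libraries of one genotype lay beyond all 3 of the other in 0 of the 10 genes, against 10.2% of all genes. For groups of this size the smallest p that an exact permutation test of a single gene allows is 0.1. The median log2 fold change was 0.00 over the 10 genes, with 5 above and 5 below 0, and -0.01 over all genes, with 6304 above and 6808 below 0.

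Without wild-type replicate 3, the picture of the same genes was different. The fold changes of 9 of the 10 were then below 0, beside 6321 of the 13112 genes tested. The median was -0.16, beside 0.01 over all genes. Ccng1 in the Ythdf2-/- libraries was at 76.9% of the mean of the other wild-type pair (log2 fold change -0.38, SE 0.11, 95% interval -0.65 to -0.11), with an adjusted p of 0.219 in edgeR's quasi-likelihood test. Phlda3 was at 77.4% (log2 fold change -0.37, SE 0.12, 95% interval -0.65 to -0.09) with an adjusted p of 0.233 in that test. Aen was at 71.0% (log2 fold change -0.50, SE 0.17, 95% interval -0.91 to -0.08) with an adjusted p of 0.251. These were the 3 of 10 genes that were lower at an unadjusted p under 0.05, against 8.58% of all genes that were lower in this way. None of the 10 was higher, against 8.03% of all genes. None of the 10 passed the adjusted threshold, which 0.0151% of all genes did, namely 2 of 13283. DESeq2 on the same 5 libraries passed 354 of 13283 genes at its adjusted threshold and again none of the 10, with its smallest adjusted p of a member at 0.0621 for Ccng1.

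Other markers moved in the same comparison. All 8 proliferation genes were below 0 without wild-type replicate 3, and 4 of them (Cdk1, Ccna2, Aurkb and Bub1) had an unadjusted p under 0.05, beside the 8.58% of all genes that were lower. The Ythdf2-/- mean was at 67.6% of the wild-type pair for Cdk1, 68.0% for Bub1 and 93.5% for Mki67. Of the 8 astroglial markers, 3 were below and 5 above 0, and Gfap was the 1 with an unadjusted p under 0.05. Gfap, the astrocyte filament gene, was at 437 and 625 CPM in that pair and at 127, 87.7 and 5.55 CPM in the Ythdf2-/- libraries, with an adjusted p of 0.254 in edgeR's quasi-likelihood test. Of the 14 neural progenitor markers, 6 were below and 8 above 0. Prom1 was lower (log2 fold change -1.6) and Sox2 (0.30) and Msi1 (0.61) were higher at an unadjusted p under 0.05. Stmn2 was the 1 such gene of 10 neuronal markers (-2.33, 1 to 19 reads per library). Cspg4 was the 1 of 8 oligodendrocyte lineage markers tested (0.41). Beside these stand 8.58% of all genes lower and 8.03% higher. The part of these markers in the levels of the 10 genes was not tested.

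The remaining libraries were not balanced for Y-linked reads. Both wild-type libraries held them (1111 and 1638 reads), as did Ythdf2-/- replicate 3 (2147), whereas Ythdf2-/- replicates 1 and 2 held 0 and 1, so sex and genotype were partly mixed. Ythdf2-/- replicate 3 was the nearest of the 3 to the wild-type pair in Ccng1 (81.5% of its mean), Phlda3 (86.9%) and Aen (80.5%), while the mean of the other Ythdf2-/- libraries was at 74.6%, 72.6% and 66.2%. Ythdf2-/- replicate 3 was instead below that mean in Trp53 (79.1% against 88.8%), Mdm2 (89.1% against 104%), Mdm4 (95.9% against 96.2%) and Trp53inp1 (112% against 132%). Among these 5 libraries, a comparison of the genotypes within those that held Y-linked reads rests on Ythdf2-/- replicate 3 alone against the wild-type pair. With all 6 libraries, a term for the presence of Y-linked reads gave log2 fold changes of 0.40 for Ccng1, 0.61 for Phlda3 and 0.17 for Aen, with no member past an unadjusted p under 0.05. Wild-type replicate 3, with 1 such read, is the only wild-type library without them, so those values rest on the library that stands apart. Without it the same term gave -0.30, -0.20 and -0.31, the values of Ythdf2-/- replicate 3 alone against the wild-type pair.

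The groups then did not overlap, with Ythdf2-/- lower, in 5 of 10 genes (Trp53, Ccng1, Phlda3, Eda2r and Aen), against 20.0% of all genes. In none was Ythdf2-/- higher throughout, against 18.9%. Trp53 was at 85.6% of the wild-type pair (log2 fold change -0.23, SE 0.10, 95% interval -0.47 to 0.02) and Eda2r at 86.1% (-0.22, SE 0.18, 95% interval -0.64 to 0.21). The other genes stayed close to 0. Mdm2 was at 99.2%, Gadd45a at 97.6%, Mdm4 at 96.1% and Zmat3 at 92.6% of the pair. Trp53inp1, at 125%, was the only gene above it, with a log2 fold change of 0.32 (SE 0.22, 95% interval -0.20 to 0.84). The wild-type group is then a pair of libraries that differed little from each other in these genes, so its spread is poorly known.

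**Figure D3:**
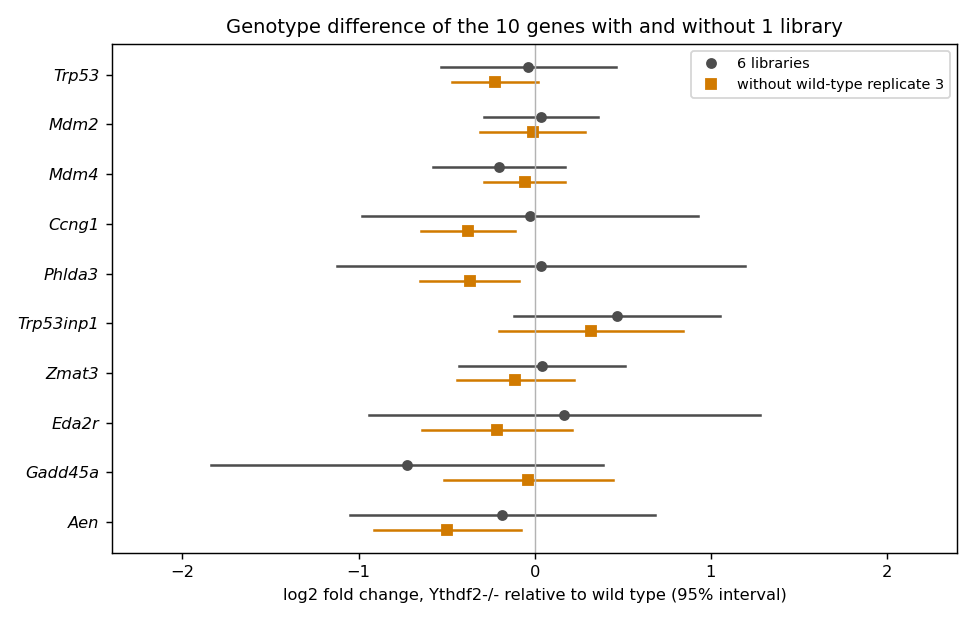
Log2 fold change of Ythdf2-/- relative to wild type for each gene and its 95% interval from edgeR's quasi-likelihood fit, with all 6 libraries (grey circles) and without wild-type replicate 3 (orange squares). The intervals of Ccng1, Phlda3 and Aen lie below 0 without that library and span 0 with it.

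Wild-type replicate 3 was the lowest of the 6 libraries in 7 of the 10 genes (Trp53, Ccng1, Phlda3, Trp53inp1, Zmat3, Eda2r and Aen), against 34.4% of all genes. It was the highest in 2 (Mdm4 and Gadd45a), against 33.8%. Relative to the mean of the other wild-type pair, it held 26.3% of the Phlda3 level, 29.6% of Eda2r, 35.1% of Ccng1 and 41.8% of Aen. Trp53 itself was at 63.2%, Zmat3 at 69.8%, Trp53inp1 at 71.0% and Mdm2 at 90.4%. The proliferation and glial markers given above moved with the same library, and their part in these levels was not tested.

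Of 60 other p53 targets, 57 were tested. Ddit4, which inhibits mTORC1 under stress, and Pml, a nuclear body protein, were the 2 with an unadjusted p under 0.05, which is 2 of 57 against 3.63% of all genes. Ddit4 was at 55.1, 50.5 and 60.2 CPM in the wild-type and at 76.7, 152 and 70.8 CPM in the Ythdf2-/- libraries. All Ythdf2-/- values were above all wild-type values, and replicate 2 was far above the rest, as for Trp53inp1. The log2 fold change of Ddit4 was 0.85 (SE 0.31, edgeR's quasi-likelihood test, adjusted p = 0.999), and 0.92 (SE 0.35) without wild-type replicate 3. Pml was at 15.3, 17.3 and 13.1 CPM in the wild-type and at 19.4, 24.3 and 21.1 CPM in the Ythdf2-/- libraries, with a log2 fold change of 0.51 (SE 0.18, adjusted p = 0.999 in that test), and 0.41 (SE 0.16) without wild-type replicate 3. Trp53cor1, a noncoding RNA next to Cdkn1a, was the other of 3 targets of 57 whose groups did not overlap, against 10.2% of all genes, at 11.2 to 13.4 CPM in the wild-type and 14.1 to 20.5 CPM in the Ythdf2-/- libraries. The median log2 fold change over the 57 targets was 0.06, with 35 above and 22 below 0, beside 6304 above and 6808 below among all genes.

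The most abundant other targets again turned on wild-type replicate 3. Cdkn1a, the p21 inhibitor of cyclin-dependent kinases and the best known p53 target, was at 300, 290 and 82.2 CPM in the wild-type and at 226, 207 and 224 CPM in the Ythdf2-/- libraries. This is the order seen in Ccng1, with the Ythdf2-/- libraries between the wild-type pair and wild-type replicate 3. Fam212b was at 511, 493 and 27.8 CPM in the wild-type and at 382, 326 and 636 CPM in the Ythdf2-/- libraries, and Trp53inp2 at 162 to 296 and 241 to 392 CPM. Wild-type replicate 3 was the lowest of the 6 libraries in 37 of the 57 targets and the highest in 7, against 34.4% and 33.8% of all genes. The median log2 ratio of that library to the other wild-type pair was -0.80 over the 57 targets, -0.59 over the 10 genes and 0.01 over all genes.

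Without wild-type replicate 3, 10 of the 57 targets were lower at an unadjusted p under 0.05 and 4 were higher, beside the 8.58% and 8.03% of all genes. None passed the adjusted threshold. The 10 included Cdkn1a (log2 fold change -0.43, SE 0.10), the proapoptotic Pmaip1 (-0.87, SE 0.24), Pidd1 (-0.48, SE 0.13), Trp53i11 (-1.06, SE 0.16) and Ddit4l (-1.45, SE 0.15), which were singled out after their values were seen. Trp53i11 was at 330 and 315 CPM in that wild-type pair and at 133, 186 and 143 CPM in the Ythdf2-/- libraries, and at 94.2 CPM in wild-type replicate 3. The 4 higher genes were Ddit4, Pml, the DNA damage recognition factor Xpc (0.41, SE 0.12) and Ppm1d (0.28, SE 0.09), a phosphatase that dampens p53 signalling. The median over the targets was -0.15, with 20 above and 37 below 0, beside 6791 above and 6321 below among all genes.

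**Figure D4:**
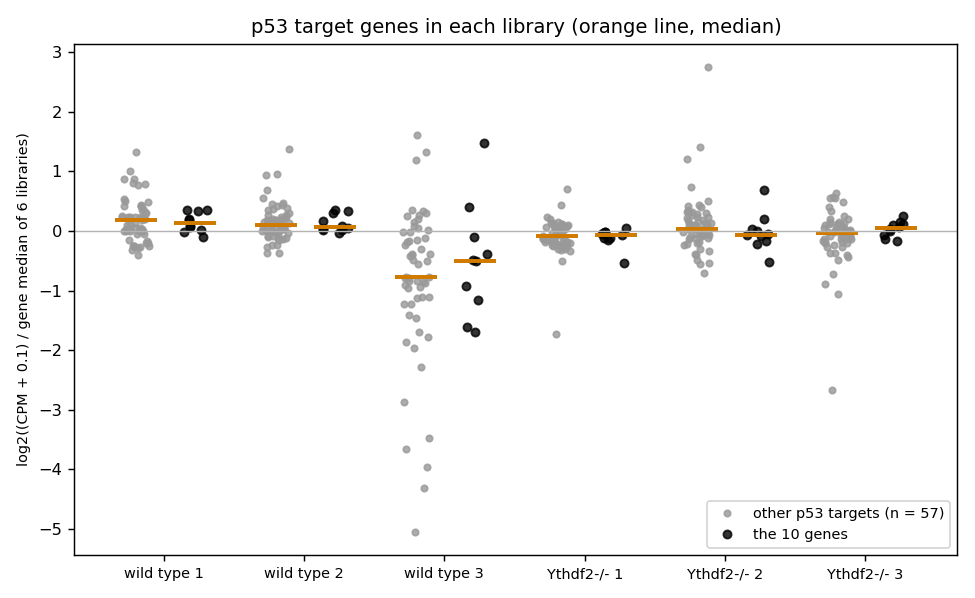
Level of each p53 target in each library as log2 of (CPM + 0.1) relative to the gene's median over the 6 libraries, for 57 other p53 targets (grey) and the 10 genes (black), with the median of each set as an orange line. Most points of wild-type replicate 3 lie below 0, and the medians of the other 5 libraries lie close to 0.

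Genes that act on p53 were described in the same way. Of 30 regulators listed (p53 relatives, kinases, ligases, acetyltransferases and cofactors), 29 had a row and 27 were tested. None had an unadjusted p under 0.05 in the comparison of all 6 libraries, against 3.63% of all genes, and the groups did not overlap in 2 of 27, against 10.2% of all genes. These 2 were Usp7, a deubiquitinase of Mdm2 and p53, at 183, 183 and 203 CPM in the wild-type and 170, 169 and 165 CPM in the Ythdf2-/- libraries, and the ubiquitin ligase Rfwd2 (also called Cop1), at 115, 118 and 141 against 103, 107 and 110 CPM. Their log2 fold changes were -0.18 (SE 0.11) and -0.23 (SE 0.13), and -0.12 and -0.13 without wild-type replicate 3. The ribosomal proteins Rpl5 and Rpl11, which can bind Mdm2 and free p53, were the most abundant regulators. Rpl5 was at 667 to 811 CPM in the wild-type and 591 to 766 CPM in the Ythdf2-/- libraries, and Rpl11 at 407 to 591 and 436 to 564 CPM, with overlapping groups.

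Wild-type replicate 3 was the lowest library in 10 of the 27 regulators and the highest in 12, against 34.4% and 33.8% of all genes, and their median log2 ratio to the other wild-type pair was 0.15. Without it, 2 regulators were lower in the Ythdf2-/- libraries at an unadjusted p under 0.05 (Chek1 and Kmt5a) and 5 were higher (Hipk2, Ep300, Crebbp, Trp53bp2 and Setd7), against 8.58% and 8.03% of all genes, and none passed the adjusted threshold. These 7 were named after their values were seen. Chek1, a checkpoint kinase of replicating cells, was at 41.0 and 38.2 CPM in that pair, at 1.56 CPM in wild-type replicate 3 and at 25.7, 17.3 and 21.9 CPM in the Ythdf2-/- libraries. Crebbp, an acetyltransferase that works with p53, was at 59.7 and 58.6, at 118 and at 79.4, 82.0 and 92.9 CPM in the same order.

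The profiles of Trp53 and Mdm2 over the 6 libraries were set against those of all tested genes. Likeness was measured as the root-mean-square difference of log2 CPM after centring each gene on its mean. The genes most like Trp53 were Mrpl20 (0.0300), Slirp (0.0377) and Trim27 (0.0399), and the closest of the other 9 members, Zmat3, came at rank 1822 with 0.186. The genes most like Mdm2 were Ap2s1 (0.0314), Snx1 (0.0359) and Kdelr1 (0.0387), and its closest member, Trp53, came at rank 3230 with 0.197. The nearest of all genes is closer than the nearest of 9 by its number alone, and with 1 library standing apart this order is only a description.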

How the data were processed

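Per the labels and methods, mRNA was fragmented and put through a stranded library kit. The authors used TopHat to map reads to mm10, and the submitters' processing notes also name Bowtie2 2.2.9, RSEM 1.2.15 and featureCounts. The authors deposited raw counts of reads per gene, without normalization; the strand setting and the treatment of shared reads are not given in the sources used here. They also deposited expected counts, TPM and FPKM per gene. Those expected counts summed to 1.97% to 2.40% of the raw counts, so FPKM served only as an alternative and TPM was not used. The 6 m6A-IP samples were not analysed here.

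Raw counts were tested with edgeR 4.0.16 in R 4.3.3 (filterByExpr, TMM, robust glmQLFit, glmQLFTest, genotype as the only term, Benjamini-Hochberg adjustment over 13112 genes). Standard errors were the log2 fold change divided by the root of F. DESeq2 1.42.0 and limma 3.58.1 were alternatives. The procedure was tested on simulated data. CPM was divided by exon length (RefSeq, GRCm38.p6) for RPKM. The median log2 ratios of wild-type replicate 3 to the other pair used CPM + 0.1, and the ratios of single genes used CPM as it is. Principal components used log2 CPM with a prior count of 2.

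The 10 genes, the target, regulator and marker lists and the tests were chosen with earlier results of these data known, and the proliferation list was added after seeing the values. Named genes were the 10, Ythdf2, and, of each list, genes with an unadjusted p under 0.05, the 3 with the highest mean CPM, up to 4 of the largest changes without overlap of groups, and the 3 profiles closest to Trp53 and Mdm2. Other names from the target and regulator lists are marked as chosen later, and single marker genes were named after their values were seen. Alternatives covered normalization, filter, test, replicate block, a term for Y-linked reads, FPKM and leaving out each library.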

Additional observations from a re-analysis of the deposited data

How the results depend on the processing

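The count of members at an unadjusted p under 0.05 was 0 with all 6 libraries and 3 (Ccng1, Phlda3 and Aen) with limma-voom sample quality weights, which give wild-type replicate 3 a weight of 0.0901 and call 29.9% of all genes at that threshold; leaving out each library gave 0 to 3, the 3 without wild-type replicate 3. After seeing the data, DESeq2 and limma-voom were run without that library, and each gave 3, the same genes, where 1925 and 2174 of 13283 genes passed; edgeR with a Y-linked term and without that library, also added, gave 1 (Trp53; 13.6% of all genes), but its genotype term rests on Ythdf2-/- replicate 3 alone, assumed to vary like the others. The smallest adjusted p of any member was 0.0621 (Ccng1) with DESeq2 and 0.208 (Ccng1) with limma-voom in the added runs without it and 0.0961 (Aen) with quality weights. Members whose groups did not overlap numbered 0 to 5 when a library was left out. The 5 were without wild-type replicate 3. There Ythdf2-/- was lower throughout in 20.0% and higher throughout in 18.9% of all genes, against 10.2% without overlap among all 6 libraries. Leaving out any other library gave at most 1, and the share of all genes was not computed for those. The target list had 2 of 57 genes at an unadjusted p under 0.05, against 3.63% of all genes, and 21 with quality weights, against 29.9%. It had 5 when the presence of Y-linked reads was a term, which called 1436 of 13112 genes (1111, 1638 and 1 reads in the wild-type and 0, 1 and 2147 in the Ythdf2-/- libraries). With a replicate block it had 0, against 1.4% of all genes. Over the left-out libraries it had 0 to 14. The 14 were without wild-type replicate 3, where 16.6% of all genes passed, against 1.85% to 4.14% without any other library. The regulator list had 0 of 27, 9 with quality weights and 0 to 7 over the left-out libraries, against the same shares of all genes. The 7 were without wild-type replicate 3. Whether the replicate numbers pair the samples is not given in the sources used here. Same-numbered deviations from the group means correlated at -0.248, -0.244 and -0.394. The wild-type deviations are from a mean that includes wild-type replicate 3, so these values cannot settle the pairing. The replicate block took the genes at an unadjusted p under 0.05 from 476 to 183. Signs of log2 fold changes turned as follows. The replicate block gave 0.11 for Ccng1, limma-voom 0.14 for Ccng1, and the Y-linked term 0.075 for Trp53, 0.40 for Ccng1 and 0.17 for Aen. Quality weights gave -0.049 for Mdm2, -0.36 for Phlda3, -0.16 for Zmat3 and -0.40 for Eda2r. Log2(FPKM + 1) and log2(FPKM + 0.1) gave 0.93 and 1.07 for Trp53, -0.22 and -0.24 for Mdm2, 0.59 and 0.78 for Ccng1, -0.34 and -0.35 for Zmat3, 0.41 and 1.35 for Gadd45a and 0.82 and 2.69 for Aen, from about 2% of the reads. Leaving out single libraries gave -0.23 to 0.074 for Trp53, -0.054 to 0.11 for Mdm2, -0.38 to 0.19 for Ccng1, -0.37 to 0.30 for Phlda3, -0.11 to 0.16 for Zmat3, -0.22 to 0.43 for Eda2r and -0.50 to 0.009 for Aen. The cause of these changes was not tested. No alternative put a member past an adjusted p of 0.05. The median log2 fold change of the members was 0.35 with log2(FPKM + 1) and 0.92 with log2(FPKM + 0.1). Those fits tested 8 members, without Mdm4 and Phlda3, and their medians over all genes were 0.11 and 0.15. In the fits to counts the median of the members lay between -0.17 and 0.18. Without wild-type replicate 3 it was -0.16 in edgeR, -0.16 in DESeq2 and -0.17 in limma-voom. Between the 3 wild-type libraries, the members' median level had an SD of 0.39 in log2 units. Wild-type replicate 3 is part of that SD, so it is no measure of how stable these medians are.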
